A study of Mus musculus with 5 samples.

Results

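The laminin and nidogen genes of mouse liver mesenchymal and endothelial cells are described here as a family of 10 genes among the 31053 genes counted. They were chosen by name and not by their values: 4 laminin alpha chains (Lama1, Lama2, Lama4 and Lama5), 2 beta chains (Lamb1 and Lamb2), 2 gamma chains (Lamc1 and Lamc3) and the 2 nidogens (Nid1 and Nid2). All 10 were found once in each count matrix. The laminin chains Lama3 and Lamb3, 18 other basement membrane genes and 11 laminin receptor genes were followed for comparison.

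Single cells were sequenced from livers of male Rosa26mTmG;Col1a1-Cre mice on the C57BL/6J background, in which Cre driven from Col1a1 sequences switches a membrane reporter from tomato to GFP in a cell and its descendants. All mice carried these alleles, and there was no group without them. The treated mice (DEN+WAD) received the liver carcinogen diethyl nitrosamine at 10 mg/kg when 2 weeks old and then, from 6 weeks of age, a liquid Western diet with 3.5% (v/v) ethanol for 5 months, while the labels give saline and chow for the control arm. Sorting used the blue autofluorescence of vitamin A, which is stored by hepatic stellate cells, and GFP. It gave 5 libraries: VitA+Col1a1+ DEN+WAD, VitA-Col1a1+ DEN+WAD, VitA+Col1a1+ chow, VitA-Col1a1+ chow and VitA-Col1a1- DEN+WAD. Each group was 1 library and the number of mice behind a library was not given in the sources used here, so no p-value could be computed. Every interval below is a 95% interval for counting error alone and says nothing of the spread between animals.

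Laminins are secreted heterotrimers of an alpha, a beta and a gamma chain that polymerise on cell surfaces. Nidogens bind the laminin gamma 1 chain and bridge the laminin sheet to the collagen IV network, and the alpha chain carries most of the sites read by integrins and dystroglycan. Basement membranes around bile ducts, portal vessels and nerves are continuous, whereas the liver sinusoid has no continuous one, and stellate cells lie between the sinusoidal endothelium and the hepatocytes in the space of Disse.

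On the GRCm38 assembly (GENCODE M21 annotation) all 10 are protein-coding genes. The alpha chain genes are Lama1 at chr17:67697259-67822647, Lama2 at chr10:26980036-27619758, Lama4 at chr10:38965515-39110188 and Lama5 at chr2:180176373-180225859. The beta chain genes are Lamb1 at chr12:31265234-31329644 and Lamb2 at chr9:108479736-108490530, and the gamma chain genes Lamc1 at chr1:153218922-153332786 and Lamc3 at chr2:31887291-31946539. Nid1 lies at chr13:13437551-13512269 and Nid2 at chr14:19751265-19811787.

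The promoters of 3 members are shown because these genes differed between the sorting gates: Lama2 and Lamb2 were higher and Lamb1 was lower in the VitA- gate. Each sequence is the window from RefSeq (assembly GRCm38.p6) of 250 bases before to 50 bases after the gene's RefSeq start, printed 5′ to 3′ on the strand of the gene, with motif matches in capitals. The RefSeq starts differ from those of the GENCODE coordinates given above. The Lama2 window lies wholly inside the Lama2 gene as given there, so it does not describe the sequence at that GENCODE start.
Lama2, chr10:27616893-27617192, minus strand: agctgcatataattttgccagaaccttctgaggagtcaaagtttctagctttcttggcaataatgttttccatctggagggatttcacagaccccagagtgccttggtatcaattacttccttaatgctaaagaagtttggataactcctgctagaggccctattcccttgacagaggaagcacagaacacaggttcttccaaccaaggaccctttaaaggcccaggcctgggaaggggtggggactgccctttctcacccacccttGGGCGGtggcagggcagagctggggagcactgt
Lamb2, chr9:108479612-108479911, plus strand: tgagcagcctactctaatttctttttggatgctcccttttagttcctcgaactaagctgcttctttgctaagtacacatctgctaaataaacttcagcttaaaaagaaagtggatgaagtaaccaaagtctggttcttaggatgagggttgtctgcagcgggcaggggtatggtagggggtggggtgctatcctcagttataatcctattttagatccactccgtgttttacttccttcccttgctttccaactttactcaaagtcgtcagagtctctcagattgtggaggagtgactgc
Lamb1, chr12:31265043-31265342, plus strand: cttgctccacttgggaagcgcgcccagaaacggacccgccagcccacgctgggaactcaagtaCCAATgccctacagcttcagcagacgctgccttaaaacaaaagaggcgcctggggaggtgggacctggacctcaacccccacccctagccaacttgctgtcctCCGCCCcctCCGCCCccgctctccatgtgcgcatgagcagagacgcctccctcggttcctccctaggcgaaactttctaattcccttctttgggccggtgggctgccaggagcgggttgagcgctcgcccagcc
The motifs searched on both strands were the GC box (letters GGGCGG), the CCAAT box (these 5 letters), the TATA box (letters TATAAA), the AP-1 site (letters TGACTCA) and the E-box (letters CACGTG), and no matches overlapped. Lama2 had 1 GC box, 18 bases after its RefSeq start. Lamb1 had 2 GC boxes, at -84 and -75 from the start on the other strand, and 1 CCAAT at -187. Lamb2 had no match in its window. Among 32851 promoters of the same length, 35.7% held the GC box, 37.4% CCAAT, 13.6% the TATA box, 5.20% the AP-1 site and 7.15% the E-box, so these matches are common letters and a description only. The windows of Lama2 and Lamb2 had 50.3% and 44.0% G and C bases and that of Lamb1 had 63.7%, beside a median of 52.7% over all promoters.

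The libraries held 259 to 10481 cells and 6145748 to 149936344 UMIs (unique molecular identifiers, each 1 captured transcript), with a median of 9106 to 24077 UMIs per cell. Levels are given as CPM, the UMIs of a gene per 1000000 UMIs of the cells summed. The 10 genes together took 0.0846% to 0.118% of the UMIs. A cell was placed in the mesenchymal class when Dcn, Col3a1 and Colec11 together reached 20 per 10000 of its UMIs, and in the endothelial class when at least 3 of Pecam1, Cdh5, Kdr, Stab2 and Ptprb had a UMI. Cells that met both rules (1 to 443 per library) were set aside. Among the Col1a1+ libraries, the mesenchymal class held 10213 (VitA+) and 2182 (VitA-) cells after DEN+WAD and 244 (VitA+) and 614 (VitA-) cells on chow, and the endothelial class 177, 440, 9 and 36 cells in the same order. The 9 endothelial cells were too few to use. VitA-Col1a1- DEN+WAD held 4753 mesenchymal and 2655 endothelial cells. The endothelial marker list summed to 1.91 to 29.9 CPM in the mesenchymal classes and to 4859 to 9726 in the endothelial classes, although the class rule itself uses these genes. The library labelled VitA-Col1a1- DEN+WAD went against its label, because Col1a1 stood at 2031 CPM in its mesenchymal class and was found in 83.2% of those cells, beside 307 and 1128 in the VitA+ and VitA- Col1a1+ libraries of the same diet. Its file was made with a later version of the authors' counting software, and macrophage markers summed to 6853 CPM in its endothelial class, beside 3.15 to 5.03 in the other 3. It enters none of the comparisons of gates or diets, and where its cells are set beside those of another library this compares libraries and not gates. Any 2 libraries shared at most 21 cell barcodes.

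Lama1, the alpha chain of laminin 111, was a gene of the VitA+ gate. In the mesenchymal class it stood at 126 CPM (117 to 136) in VitA+Col1a1+ chow and at 85.8 (84.3 to 87.3) in VitA+Col1a1+ DEN+WAD. It was 22.9 (21.4 to 24.4) in VitA-Col1a1+ DEN+WAD and 4.25 (3.24 to 5.47) in VitA-Col1a1+ chow, and 34.8 (33.2 to 36.5) in the library labelled VitA-Col1a1-. All 5 intervals were apart. The endothelial class had 0 to 2.51 CPM.

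Lama2, the alpha chain of laminin 211, which is best known from muscle and nerve, was higher in the VitA-Col1a1+ libraries than in the VitA+Col1a1+ libraries. It was 201 CPM (194 to 209) in VitA-Col1a1+ chow, 106 (103 to 109) in VitA-Col1a1+ DEN+WAD and 152 (148 to 155) in the library labelled VitA-Col1a1-. Lama2 levels were 38.1 (33.3 to 43.5) in VitA+Col1a1+ chow and 30.2 (29.3 to 31.1) in VitA+Col1a1+ DEN+WAD. Both VitA-Col1a1+ libraries were thus above both VitA+Col1a1+ libraries, and the library labelled VitA-Col1a1- lay between the former. The endothelial class had 0 to 1.64 CPM, beside 0.721 in macrophage-like cells of that library.

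Lama4, the alpha chain of the laminins of vascular basement membranes, was the leading alpha chain of the endothelial class. Endothelial levels were 211 CPM (189 to 235) in VitA+Col1a1+ DEN+WAD, 203 (192 to 215) in VitA-Col1a1+ DEN+WAD, 165 (135 to 200) in VitA-Col1a1+ chow and 104 (100 to 108) in the library labelled VitA-Col1a1-. The mesenchymal levels spread far more, from 0 of 5822332 UMIs in VitA+Col1a1+ chow and 1.51 CPM (1.32 to 1.72) in VitA+Col1a1+ DEN+WAD to 66.7 (64.5 to 69.0) in the library labelled VitA-Col1a1-. The VitA-Col1a1+ libraries lay between, with 12.2 (11.2 to 13.4) in DEN+WAD and 20.5 (18.2 to 23.0) in chow. Lama5, the other alpha chain found in endothelium and in epithelial basement membranes, was low in both classes. It was 14.7 to 27.0 CPM in the endothelial class and 2.59 to 15.5 in the mesenchymal class, where VitA-Col1a1+ chow was highest with 15.5 (13.5 to 17.7) and VitA+Col1a1+ chow next with 8.07 (5.93 to 10.7).

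Lamb1, the beta chain shared by many laminins, was the most abundant laminin chain of the mesenchymal class in 3 of the 5 libraries. It was 312 CPM (297 to 326) in VitA+Col1a1+ chow, 232 (229 to 234) in VitA+Col1a1+ DEN+WAD, 171 (167 to 175) in VitA-Col1a1+ DEN+WAD, 134 (128 to 140) in VitA-Col1a1+ chow and 271 (266 to 275) in the library labelled VitA-Col1a1-. In the endothelial class it was 0 to 5.66. Lamb2, the beta chain of vascular, muscle and glomerular laminins, took its place there with 52.5 to 91.4 CPM. In the mesenchymal class Lamb2 was highest in the VitA-Col1a1+ libraries, at 190.4 (183 to 198) in chow and 99.2 (96.1 to 102) in DEN+WAD. It was 53.5 (51.5 to 55.5) in the library labelled VitA-Col1a1-, and the VitA+Col1a1+ libraries had 23.9 (23.1 to 24.7) in DEN+WAD and 21.8 (18.2 to 26.0) in chow, which overlapped.

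Lamc1, the gamma chain of nearly all laminins, varied least, with 188 (184 to 192) to 292 (278 to 306) CPM in the mesenchymal class, a span of 1.55-fold. It was 38.7 to 58.2 in the endothelial class. Lamc3, a gamma chain with a narrow distribution that was first described in skin and nerve, varied most. It was 105 CPM (99.7 to 110.4) in VitA-Col1a1+ chow, 54.4 (52.1 to 56.7) in VitA-Col1a1+ DEN+WAD and 8.90 (8.11 to 9.76) in the library labelled VitA-Col1a1-. The mesenchymal class of VitA+Col1a1+ DEN+WAD had 21 UMIs of Lamc3 among 146999072, which is 0.143 CPM, and that of VitA+Col1a1+ chow had 0 of 5822332, which with a floor of 3 UMIs allows up to 0.515 CPM. Endothelial cells had 0 to 0.472 CPM.

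Nid1, the main nidogen, was the most abundant of the 10 genes in every mesenchymal and endothelial class used. In the mesenchymal class it was 458 CPM (452 to 464) in the library labelled VitA-Col1a1-, 320.1 (306 to 335) in VitA+Col1a1+ chow, 264 (255 to 272) in VitA-Col1a1+ chow, 255 (252 to 257) in VitA+Col1a1+ DEN+WAD and 222 (218 to 227) in VitA-Col1a1+ DEN+WAD. Its endothelial levels were 257 to 278 in the 3 Col1a1+ libraries used. The library labelled VitA-Col1a1- had 168 there, and its mesenchymal level was 2.72-fold higher. Nid2, its homologue, was mesenchymal, with 33.2 to 70.7 CPM against 3.15 to 5.98 in the endothelial class.

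**Figure D1:**
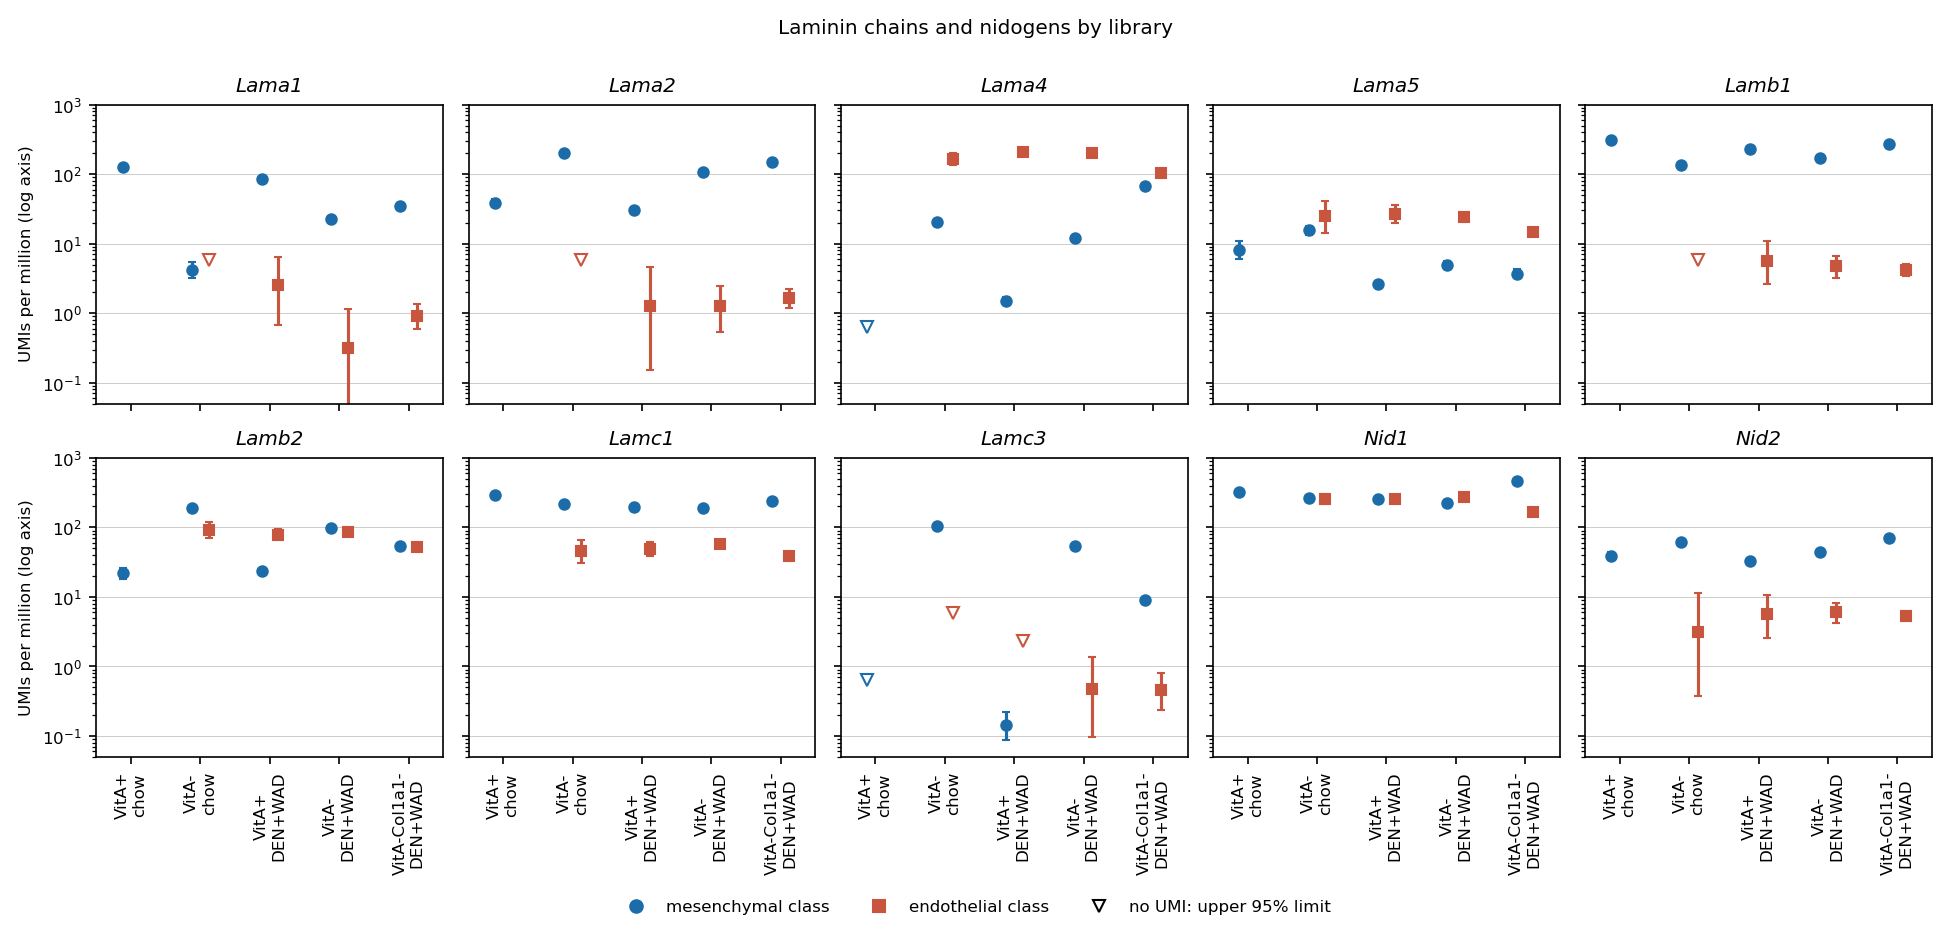
CPM (log axis) of each gene in the mesenchymal class (circles) and the endothelial class (squares) of each library, with 95% counting intervals; an open triangle marks the upper limit where no UMI was counted, and the endothelial class of VitA+Col1a1+ chow (9 cells) is left out. Lama1 is highest in the VitA+ libraries, Lamb2 and Lamc3 in the VitA-Col1a1+ libraries and Lama4 in endothelial cells, Lama2 is lowest among mesenchymal classes in the VitA+ libraries, while Nid1 stands between 168 and 458 throughout.

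The gates were compared first, to ask which laminins separate VitA+ from VitA- Col1a1+ cells in each diet. A gene was called when the levels differed at least 2-fold and averaged at least 5 CPM over the 2 libraries. In DEN+WAD, 9 of the 10 genes reached that average, Lama4 and Lamc3 only through the VitA- library, so the counts are a description. In the VitA- library 4 genes were called higher, where 6.18% of 9642 genes were, and 1 was called lower, where 1.65% were. Lamc3 was 381-fold higher (248 to 616), Lama4 8.09-fold (6.89 to 9.53), Lamb2 4.15-fold (3.96 to 4.34) and Lama2 3.51-fold (3.37 to 3.67). Lama1 was 3.75-fold lower in VitA- cells. The other 4 differed less. Lamb1, Lamc1 and Nid1 were lower in VitA- cells by 1.35, 1.05 and 1.15-fold, and Nid2 was 1.31-fold higher. The median log2 ratio of the 9 was 0.39, beside 0.02 over all genes tested.

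In chow all 10 genes reached the average, Lama1, Lama4 and Lamc3 only through the library where they were high. The same 4 genes were called higher in VitA- cells, where 11.1% of 9989 genes were, and Lama1 and Lamb1 were called lower, where 6.12% were. Against the floor of 3 UMIs, Lamc3 was at least 204-fold and Lama4 at least 39.7-fold higher in the VitA- library. Lamb2 was 8.73-fold higher (7.30 to 10.5) and Lama2 5.27-fold (4.60 to 6.07), whereas Lama1 was 29.7-fold and Lamb1 2.32-fold lower. The intervals of Lama5 (1.92-fold higher) and Nid2 (1.58-fold higher) lay above 1, and those of Lamc1 and Nid1 below it. The median log2 ratio was 0.80, beside 0.06 over all genes, and it was the same with Lama4 and Lamc3 at their bounds.

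The gates did not hold the same mix of cells. Cells with at least 3 of 8 stellate markers (among them Lrat, Reln, Hand2 and Lhx2) and fewer than 3 fibroblast or smooth muscle markers are called stellate-like here. They were 95.5% and 96.7% of the mesenchymal class in the VitA+ libraries of DEN+WAD and chow, 53.6% in VitA-Col1a1+ DEN+WAD and 5.54% (34 cells) in VitA-Col1a1+ chow. Among stellate-like cells alone, the differences of Lama1, Lama2, Lamb1 and Lamb2 between gates were smaller in both diets. In DEN+WAD only Lama1 was still called, at 86.6 against 39.7 CPM, which is 2.18-fold lower in VitA- cells. Lama2 was 1.85-fold higher (1.72 to 1.98) and Lamb2 1.25-fold higher (1.14 to 1.37) in VitA- stellate-like cells, and Lamc3 had 16 UMIs in the 1169 VitA- cells and 2 in the 9750 VitA+ cells. In chow Lama1 was 124 against 58.0 and Lama2 36.4 against 95.6 CPM, both past 2-fold. The calls of Lamb2, Lama4 and Lamc3 in the whole class were thus not made among stellate-like cells in either diet, Lama4 and Lamc3 because they did not reach the average there, and that of Lamb1 in chow was not made either.

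**Figure D2:**
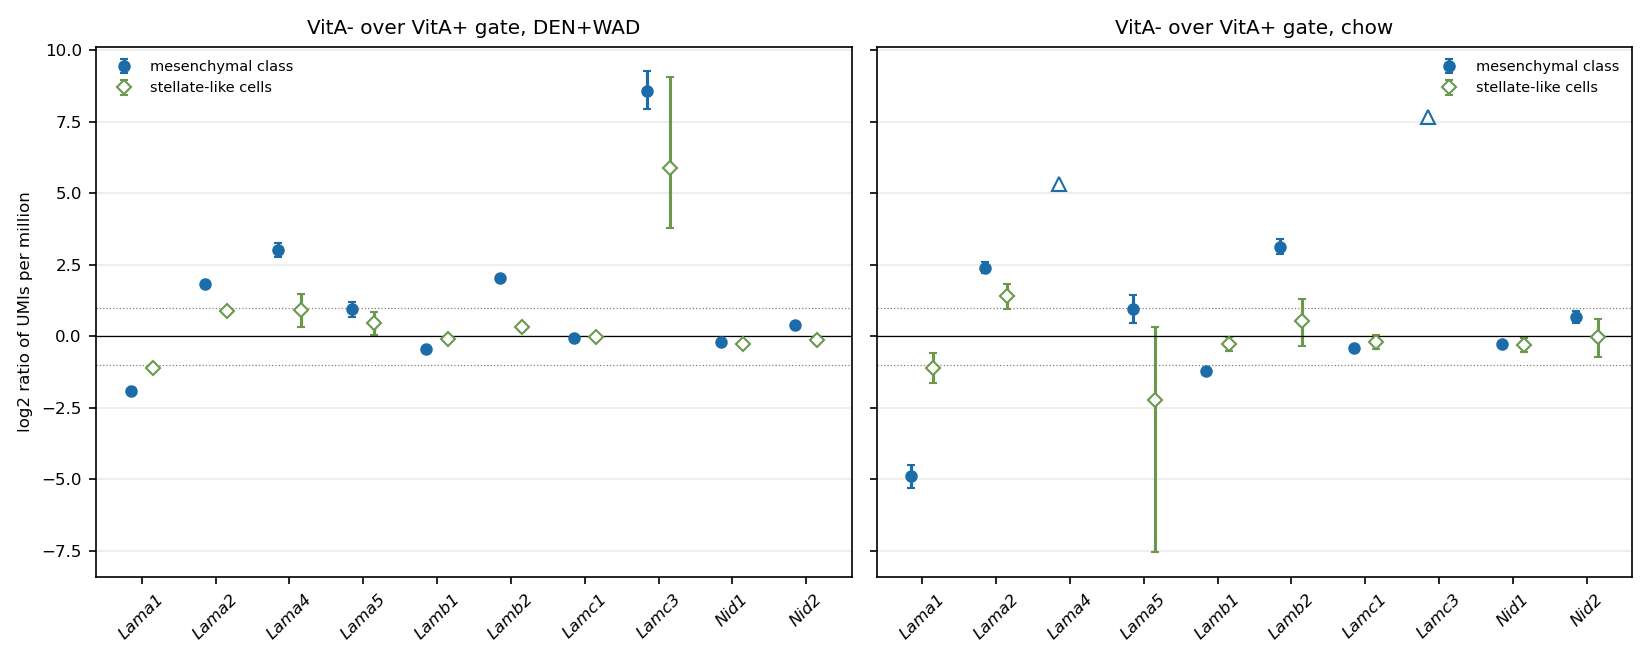
Log2 ratio of CPM, VitA- over VitA+ library, for DEN+WAD (left) and chow (right), in the mesenchymal class (circles) and in stellate-like cells (diamonds), with 95% counting intervals; triangles are lower bounds against a library with no UMI and dotted lines mark 2-fold. Lama2, Lama4, Lamb2 and Lamc3 are past 2-fold in the class in both diets, and Lama1, Lama2, Lamb1 and Lamb2 lie closer to 0 in stellate-like cells.

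The diets were compared next, to ask which laminins differ after DEN+WAD within a gate. In the VitA+ gate, 8 genes reached the average, Lama5 only through the chow library, so the counts are a description. None was called higher, where 1.07% of 9439 genes were, and Lama5 was called lower, where 2.10% were. Lama5 was 2.59 CPM in DEN+WAD and 8.07 in chow (380 and 47 UMIs), 3.12-fold lower. The intervals of 7 genes lay below 1: besides Lama5, these had DEN+WAD over chow ratios of 0.680 (0.631 to 0.733) for Lama1, 0.791 (0.691 to 0.909) for Lama2, 0.744 (0.710 to 0.780) for Lamb1, 0.676 (0.644 to 0.710) for Lamc1, 0.796 (0.759 to 0.834) for Nid1 and 0.848 (0.742 to 0.973) for Nid2. The interval of Lamb2 held 1, with a ratio of 1.10 (0.918 to 1.32). The share of all genes whose intervals lay below 1 is not given here. The median log2 ratio was -0.38, beside -0.05 over all genes. Stellate-like cells of this gate gave nearly the same ratios, for example 0.700 (0.649 to 0.756) for Lama1 and 0.676 (0.643 to 0.711) for Lamc1. So the main stellate laminin genes Lama1, Lamb1, Lamc1 and Nid1 had lower levels in the DEN+WAD library of the VitA+ gate, by less than 2-fold. Library sizes scaled by TMM moved the median of all genes in this comparison by 0.11 and left each member's direction as it was, while the share of called genes that were higher went from 33.8% to 45.3%.

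In the VitA- gate all 10 genes reached the average, Lama1 and Lama5 only through the library where they were high, so the counts are a description. Lama1 was called higher in DEN+WAD, where 2.51% of 9943 genes were, and Lama5 was called lower, where 4.91% were. Lama1 was 5.39-fold higher (4.15 to 7.12) and Lamb1 1.28-fold higher (1.21 to 1.34). Lama5 was 3.12-fold lower, and Lama2, Lamb2 and Lamc3 were lower by 1.90, 1.92 and 1.93-fold, just inside the 2-fold limit. Averaged over cells instead of over UMIs, these 3 and Lama4 were past it, which made 6 calls in place of 2. The intervals of 8 genes lay below 1 and of 2 above it, but the share of all genes with such intervals is not given here. The median log2 ratio was -0.63, beside -0.09 over all genes. With TMM the median of all genes moved by 0.15, and 46.9% of the called genes were higher in place of 33.9%.

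The 2 libraries of the VitA- gate had different shares of stellate-like cells, as given above (53.6% in DEN+WAD and 5.54% in chow). Within stellate-like cells Lama1 was not higher but lower in DEN+WAD, at 39.7 against 58.0 CPM, a ratio of 0.685 (0.486 to 0.996) that rests on 34 UMIs in chow. Lamb1 was also lower there, with a ratio of 0.829 (0.706 to 0.981), as were Lama2 at 0.527 (0.402 to 0.703), Lamc1 at 0.752 (0.638 to 0.892) and Nid1 at 0.802, whose interval also lay below 1. None of the 10 genes was called in stellate-like cells, since Lama4 and Lamc3, with 2 UMIs each in chow, fell short of the average there. Fibroblast-like cells, which had at least 3 of 8 fibroblast markers and fewer than 3 stellate or smooth muscle markers, were 98 and 32 cells. In them Lama2 was 214 and 209.6, Lamb2 237 and 211, and Lamc3 199 and 173 CPM in DEN+WAD and chow, and all 3 intervals of the ratio held 1. Lama5 had 1 and 13 UMIs in them, a DEN+WAD over chow ratio of 0.0255 (0.000600 to 0.170). Cells with at least 3 markers of both the stellate and the fibroblast list and fewer than 3 of smooth muscle were more numerous, at 416 and 176, and gave lower levels in DEN+WAD, with ratios of 0.703 (0.648 to 0.764) for Lama2, 0.772 (0.700 to 0.853) for Lamb2 and 0.730 (0.661 to 0.807) for Lamc3. In these cells Lama1 was 2.92-fold higher in DEN+WAD (1.61 to 5.72), at 8.79 against 3.01 CPM (81 and 13 UMIs), and Lamb1 was lower, with a ratio of 0.825 (0.756 to 0.902). The direction of Lama1 between diets thus differed between these cells and the stellate-like cells, whose chow side was 34 cells.

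**Figure D3:**
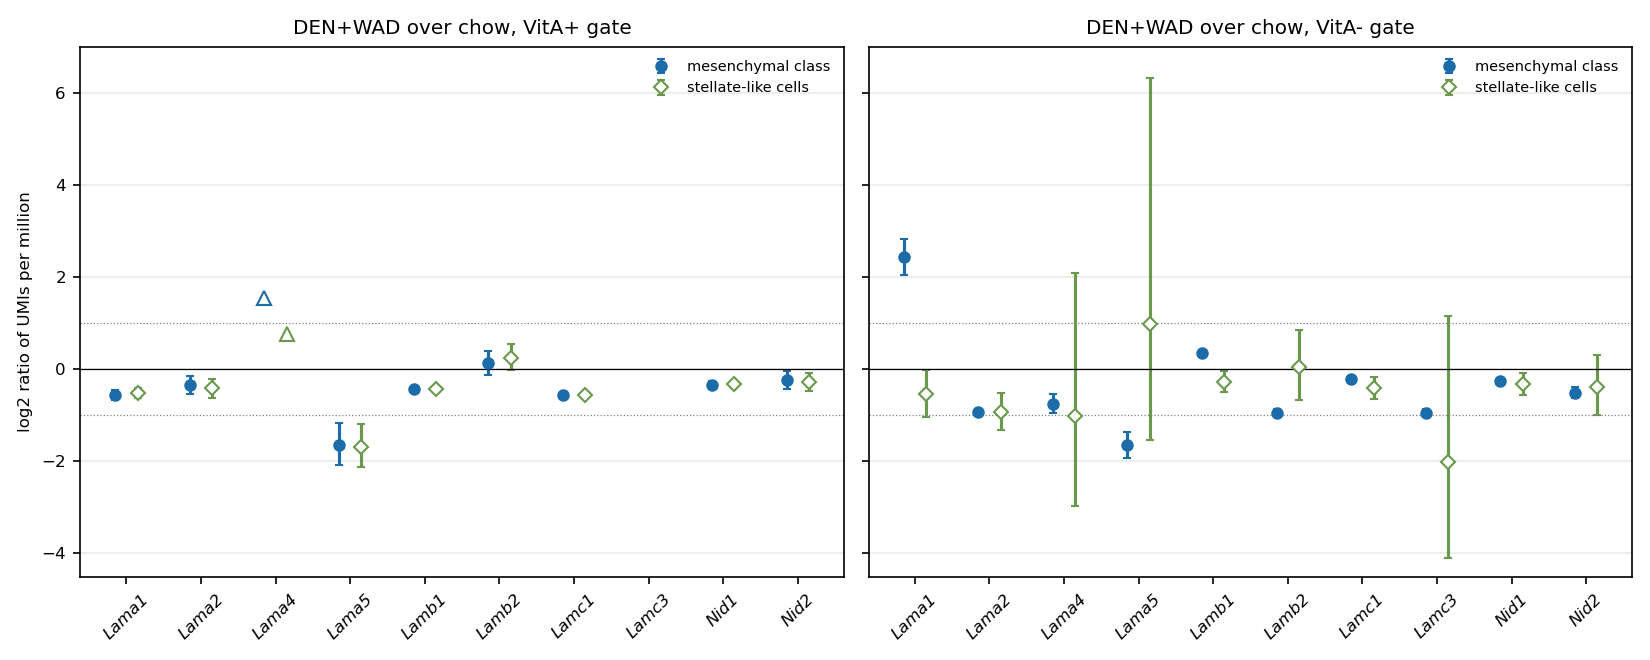
Log2 ratio of CPM, DEN+WAD over chow, in the VitA+ gate (left) and the VitA- gate (right), in the mesenchymal class (circles) and in stellate-like cells (diamonds), with 95% counting intervals; triangles are bounds against a library with no UMI, dotted lines mark 2-fold, and a gene with no informative bound has no mark. Lama1 is 5.39-fold higher in the VitA- class but below 0 in stellate-like cells of that gate, while most genes of the VitA+ gate lie between 0 and -1.

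Endothelial and mesenchymal cells of the same library carried different laminin chains. In VitA-Col1a1+ DEN+WAD all 10 genes reached the average over the 2 classes, several of them only through the class where they were high, so the counts are again a description. Lama4 and Lama5 were called higher in endothelial cells, where 21.3% of 10145 genes were, and 6 genes were called lower, where 14.7% were. Lama4 was 16.6-fold higher (15.0 to 18.5) and Lama5 4.87-fold (3.92 to 6.05). Lamb1 was 36.3-fold, Lama2 84.2-fold, Nid2 7.29-fold and Lamc1 3.23-fold lower, and Lama1 and Lamc3 had 2 and 3 endothelial UMIs, with ratios of 0.0138 (0.00166 to 0.0498) and 0.00868 (0.00179 to 0.0254). Lamb2 and Nid1 were shared, at 84.8 against 99.2 and 278 against 222 CPM. The median log2 ratio was -2.28, beside 0.21 over all genes. TMM moved the latter median by -0.27 and the share of called genes that were higher from 59.1% to 46.5%, while the calls of the 10 genes stayed the same.

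In the library labelled VitA-Col1a1- the pattern was alike except for Lama4 and Nid1. Here 9 genes reached the average, again several only through the class where they were high. Only Lama5 was called higher in endothelial cells, where 17.0% of 10376 genes were. The 6 genes called lower, where 13.5% were, were Lama1, Lama2, Lamb1, Lamc1, Nid1 and Nid2. Lama4 was 1.56-fold higher (1.48 to 1.64) in endothelial cells and Nid1 was 2.72-fold lower. The part of the macrophage markers of this endothelial class, given above, in these differences was not tested. Lamb2 did not differ beyond counting error, with a ratio of 0.982 (0.920 to 1.05). The median log2 ratio was -2.64, beside 0.09 over all genes. In VitA+Col1a1+ DEN+WAD the 177 endothelial cells had 140-fold more Lama4 (118 to 166) and 3.29-fold more Lamb2 (2.73 to 3.93) than the mesenchymal class, and their Nid1 was within counting error of it. The 36 endothelial cells of VitA-Col1a1+ chow had 8.09-fold more Lama4 (6.41 to 10.1), but Lamb2 was lower, with a ratio of 0.480 (0.363 to 0.622). Their Lama5 interval held 1, with a ratio of 1.63 (0.913 to 2.70).

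The Lama4 level of mesenchymal cells is given beside that of endothelial markers. Stellate-like cells had 55.7 CPM of it in the library labelled VitA-Col1a1-, beside 1.70 and 0.897 in VitA-Col1a1+ DEN+WAD and VitA+Col1a1+ DEN+WAD, so it was 32.8-fold (23.1 to 48.1) and 62.1-fold (51.5 to 75.3) higher. The endothelial list in those cells summed to 26.9 CPM, 0.555% of its level in the endothelial class of the library, whereas Lama4 was at 53.5% of its endothelial level. In the 1594 of these cells without a UMI of any endothelial list gene, Lama4 was 49.2 (45.7 to 52.9). The class rule sets aside cells with 3 or more of the same 5 genes and so lowers the list's sum by itself, and the part of endothelial RNA in the Lama4 level was not tested. Nid1 (445 CPM), Nid2 (59.1) and Lama2 (122) were also higher in the stellate-like cells of this library than in those of VitA-Col1a1+ DEN+WAD, by 2.14, 2.04 and 2.43-fold, while Lamb2 was within counting error. Macrophage and hepatocyte markers summed to 395 and 674 CPM in them, beside 2.66 and 14.3 in those of VitA-Col1a1+ DEN+WAD, and their part in the difference was not tested. Lama4 itself was 0.561 in the macrophage-like and 0.815 in the hepatocyte-like cells of the library.

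Within the mesenchymal class, stellate-like and fibroblast-like cells divided the laminins. In VitA-Col1a1+ DEN+WAD, fibroblast-like cells had 234-fold more Lamc3 (142 to 413), 16.0-fold more Lama4 (10.1 to 25.7), 8.41-fold more Lamb2 (7.40 to 9.55) and 4.24-fold more Lama2 (3.77 to 4.77) than stellate-like cells. Lama1 had 1 UMI in the fibroblast-like cells and 748 in the stellate-like cells, a ratio of 0.0132 (0.000333 to 0.0735). Lamb1 was 2.18-fold lower in fibroblast-like cells and Nid2 2.09-fold higher, and the interval of Nid1 held 1, with a ratio of 1.09 (0.987 to 1.21). The chow library gave the same order for Lama2 (2.19-fold), Lamb2 (7.73-fold) and Lamc3 (173 CPM against 2 UMIs in the stellate-like cells). Lama5 went opposite ways on few UMIs. Its ratio was 0.154 (0.00383 to 0.888) in DEN+WAD, from 1 and 64 UMIs, and 12.0 (1.80 to 510) in chow, from 13 and 1. In the library labelled VitA-Col1a1-, Lamc3 was 94.1 CPM in fibroblast-like cells and had no UMI in 1971 stellate-like cells, at least 608-fold higher, but Lama4 was 1.48-fold lower in the fibroblast-like cells.

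Cells with at least 3 smooth muscle markers and also a stellate or fibroblast list made up 58.3% of the VitA-Col1a1+ mesenchymal class on chow and 20.1% after DEN+WAD, and 25.2% of that in the library labelled VitA-Col1a1-. In the VitA-Col1a1+ libraries they had Lama2 at 199 and 146, Lamb2 at 221 and 195 and Lamc3 at 85.3 and 77.0 CPM in chow and DEN+WAD, so Lamc3 was below its 173 and 199 in fibroblast-like cells of the same libraries. In the library labelled VitA-Col1a1- the cells of that description had Lamc3 at 5.16, Lama1 at 36.6 and Nid1 at 537. Levels in cells that met this rule thus differed between libraries, and the mix of cells that the rule took in was not tested.

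Among endothelial cells, nearly all were sinusoidal-like. In the library labelled VitA-Col1a1-, 107 non-sinusoidal-like cells (more of Vwf, Cd34, Selp, Emcn, Cdh13, Efnb2, Sox17 and Ltbp4 than of 8 sinusoidal markers) were compared with 2475 sinusoidal-like cells. They had 5.84-fold more Nid2 (3.59 to 9.15), 5.64-fold more Lamb1 (3.25 to 9.33), 2.89-fold more Lamc1 (2.31 to 3.58) and 2.81-fold more Lama5 (1.92 to 3.98), and Lama4 was alike at 98.6 and 104 CPM. Lamb2 and Nid1 were 1.57-fold (1.22 to 1.99) and 1.25-fold (1.07 to 1.44) higher in them. Lama4 was thus the 1 of the 7 genes with over 15 UMIs in these cells that did not differ beyond counting error. Other marker lists differed between these subsets as well: the fibroblast list summed to 943 CPM in the non-sinusoidal-like and 88.3 in the sinusoidal-like cells, and the macrophage list to 287 and 7194, and their part in these differences was not tested. The 46 cholangiocyte-like cells of that library had Lamc3 at 73.5 (39 UMIs), Lama4 at 60.3, Lamb2 at 35.8 and Lama5 at 32.1 CPM, and no UMI of Lama1, Lama2 or Nid2. The hepatocyte list summed to 6418 CPM in these cells, above their cholangiocyte list at 2643, and its part was not tested. Hepatocyte-like cells had 92.9 CPM of Nid1 and at most 11.96 of each other member.

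**Figure D4:**
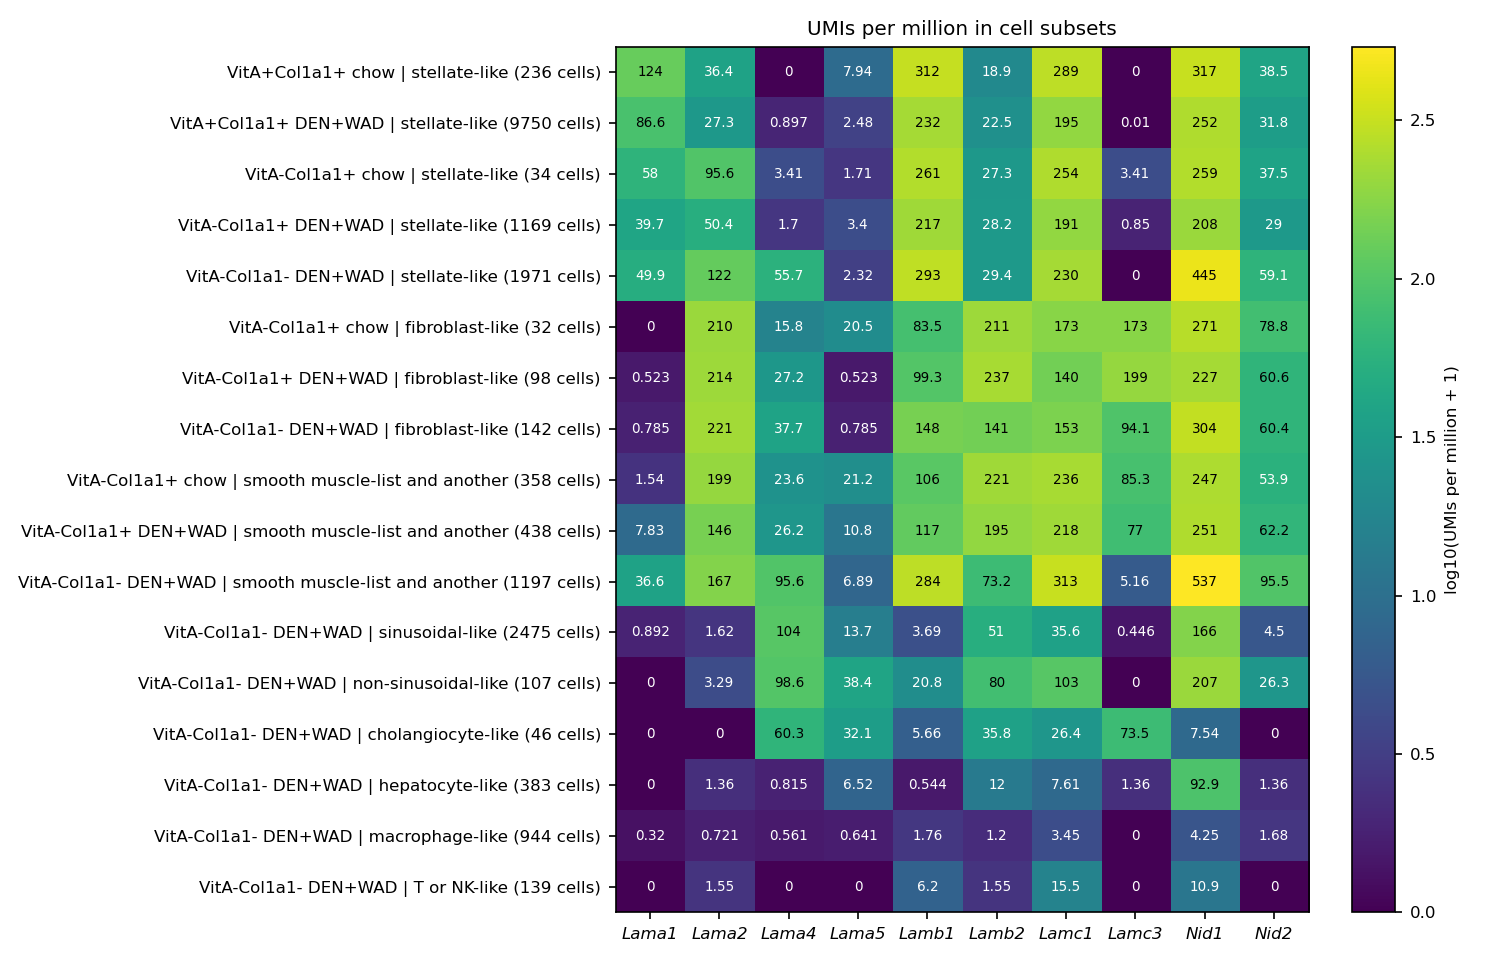
CPM of each gene (columns) in cell subsets of each library (rows, with the number of cells), coloured by log10(CPM + 1). Stellate-like rows carry Lama1 and Lamb1 with Lamc3 at 0 to 3.41, fibroblast-like rows carry Lama2, Lamb2 and Lamc3 with Lama1 at 0 to 0.785, and macrophage-like cells hold at most 4.25 of any gene.

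The make-up of each chain type was then counted as shares of its UMIs. The counts are of 3′ ends, 1 UMI for a transcript of any length, so shares of UMIs compare genes only as far as capture is alike. The shares are of the chains named here, with Lama3 counted among the alpha and Lamb3 among the beta chains. Of alpha chain UMIs in the mesenchymal class, Lama1 made up 73.2% in VitA+Col1a1+ chow and 71.5% in VitA+Col1a1+ DEN+WAD, against 15.7% in VitA-Col1a1+ DEN+WAD and 1.76% in VitA-Col1a1+ chow. Lama2 made up 72.5% and 83.2% in the latter 2 libraries. In the library labelled VitA-Col1a1-, Lama2 held 59.0%, Lama4 26.0% and Lama1 13.5%. Lamb1 held 90.6% and 93.4% of beta chain UMIs in the VitA+ libraries of DEN+WAD and chow, and 62.9% and 41.2% in the VitA-Col1a1+ libraries. Lamc3 held 22.5% of gamma chain UMIs in VitA-Col1a1+ DEN+WAD and 32.4% in chow, and 58.7% in the fibroblast-like cells of the former, where it passed Lamc1. In the endothelial classes Lama4 held 81.4% to 86.6% of alpha, Lamb2 92.3% to 100% of beta and Lamc1 98.8% to 100% of gamma chain UMIs.

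**Figure D5:**
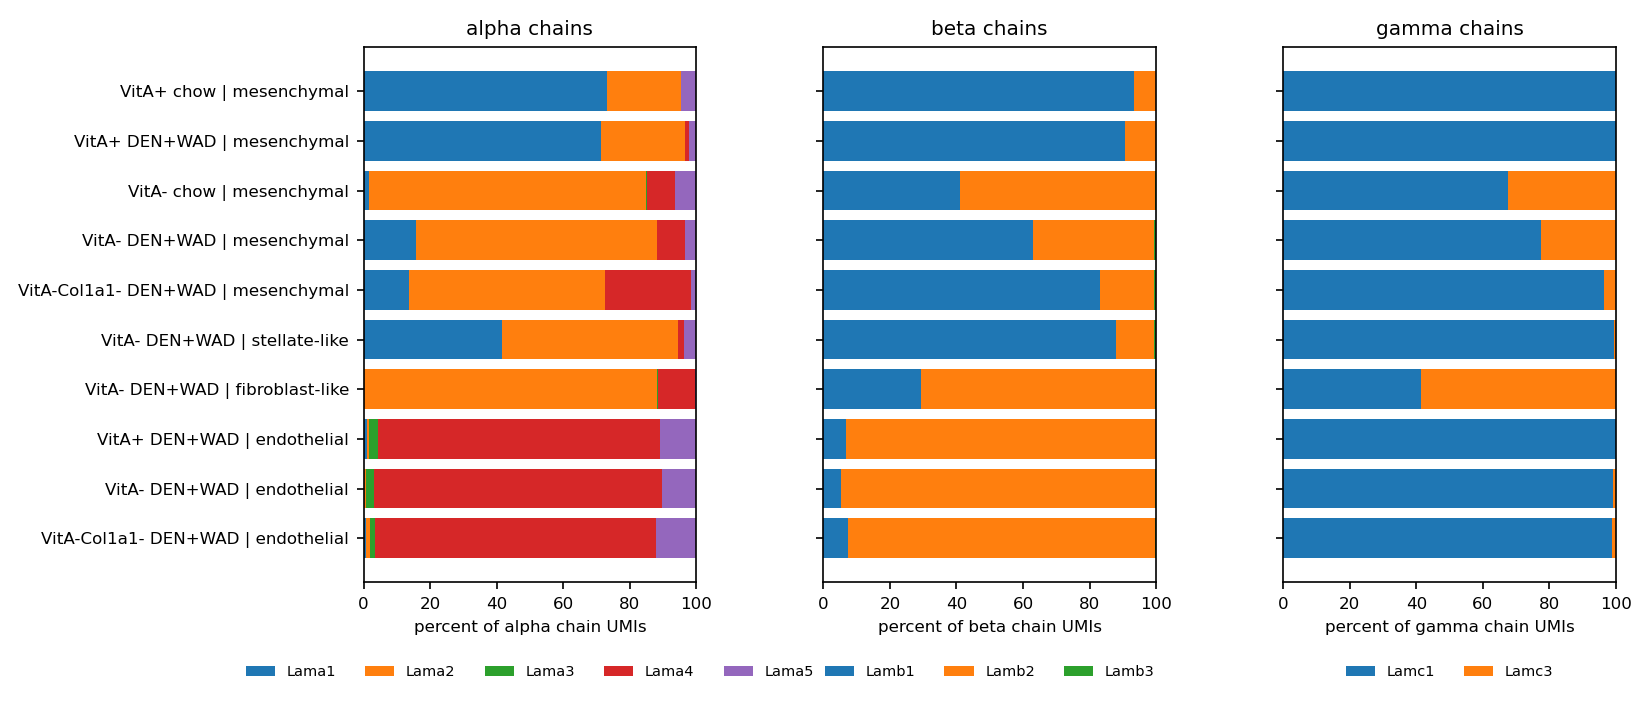
Percent of the UMIs of all alpha (left), beta (middle) and gamma (right) chains that each gene held, by library and cell class (rows). VitA+ mesenchymal rows are mostly Lama1 with Lamb1 and Lamc1, VitA- mesenchymal rows hold more Lama2, Lamb2 and Lamc3, and endothelial rows are mostly Lama4 with Lamb2 and Lamc1.

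Shares of cells with a UMI followed the levels once each cell was thinned to 2000 UMIs, for which 4 to 1439 shallower cells per library were left out. Among Col1a1+ libraries, Lama1 was found in 15.8% (DEN+WAD) and 19.1% (chow) of VitA+ mesenchymal cells and in 4.79% (DEN+WAD) and 0.330% (chow) of VitA- ones (63.5%, 86.9%, 25.0% and 5.54% unthinned). Lamc3 was found in 0.0298%, 0%, 6.72% and 14.7% of them in the same order (0.0587%, 0%, 20.8% and 46.7% unthinned), and 0 of 241 cells allows a share of up to 1.24%. Macrophage-like cells, which should lack laminins and were found in the library labelled VitA-Col1a1-, had a UMI of a member in 0% to 0.935% of cells after thinning, by gene, with a median of 11599 UMIs per cell beside 10717 in its mesenchymal class. In its endothelial class Lama1 was found in 0.387% of thinned cells (0.186% to 0.711%), beside 0 of 749 macrophage-like cells, a count that allows up to 0.4005%. Lama2 was found in 0.310% (0.134% to 0.610%) of the endothelial and 0.267% (0.0324% to 0.961%) of the macrophage-like cells, and both pairs were within counting error.

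Lama1 and Lamc3 were rarely found in the same cell. In the mesenchymal class of VitA-Col1a1+ DEN+WAD, 545 cells had a UMI of Lama1, 454 had Lamc3 and 14 had both, whereas the product of the shares is 113 cells. Lama2 and Lamc3 shared 414 cells, where the product is 285. In VitA-Col1a1+ chow Lama1 and Lamc3 shared 4 cells, where the product is 15.9, and in the library labelled VitA-Col1a1- they shared 8, where it is 35.7. Within stellate-like cells of VitA-Col1a1+ DEN+WAD, where 16 of 1169 cells had Lamc3, the 7 cells with both were close to the product of 6.27. Among cells of that library with both the stellate and the fibroblast list, 2 had both genes, where the product is 23.5. Cells with both lists shared 2 in the library labelled VitA-Col1a1-, where the product is 10.6. In VitA-Col1a1+ chow they shared 4, where it is 4.65. These counts describe cells of single libraries and carry no test.

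Lama3 and Lamb3 were almost absent. Each had at most 1.97 CPM in the mesenchymal classes, neither reached the average in any comparison, and Lama3 was 1.64 to 12.6 in the endothelial classes. The cholangiocyte-like cells had Lamb3, a beta chain of epithelial laminin, at 24.5 CPM.

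Of the 18 other basement membrane genes, 14 reached the average in the DEN+WAD gate comparison. There 6 were called higher in VitA- cells, where 6.18% of all genes were, none was called lower, and 8 were not called. The 6 were the collagen IV chains Col4a4 (35.8 against 0.769 CPM) and Col4a5, the multiplexin collagens Col15a1 and Col18a1, and the calcium-binding matrix proteins Smoc1 and Smoc2 (467 against 85.6). Col4a4 reached the average only through the VitA- library, so the counts of this list are a description. In chow 8 of 16 were higher (Col4a3, Col4a4, Col4a5, Col15a1, Col18a1, Smoc1, Smoc2 and Npnt), where 11.1% of all genes were, and Hmcn1 was lower, at 33.8 against 172, as 6.12% were. In the VitA- gate 6 of 17 were called lower in DEN+WAD (Col4a3, Col4a4, Col4a5, Col4a6, Smoc1 and Npnt), where 4.91% of all genes were, and none higher, and in the VitA+ gate none of 9 was called in either direction. The abundant Col4a1 was 651 and 713 CPM in the VitA+ and VitA- libraries of DEN+WAD. Hspg2, which encodes perlecan, was higher in endothelial than mesenchymal cells, at 560 against 67.8 CPM in VitA-Col1a1+ DEN+WAD, where 4 of 15 genes were called higher (with Agrn, Tinagl1 and Pxdn) and 6 lower, beside 21.3% and 14.7% of all genes. In the library labelled VitA-Col1a1-, 1 of 13 was higher (Hspg2) and 8 were lower, the abundant Col4a1, Col4a2 and Sparc among them, beside 17.0% and 13.5%.

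Of the 11 laminin receptors, 6 reached the average in the DEN+WAD gate comparison. Only Bcam, a receptor for laminin alpha 5, was called, at 19.2 CPM in VitA- and 4.02 in VitA+ cells, where 6.18% of all genes were called higher. Bcam reached the average only through the VitA- library. In chow 2 of 8 were called higher in VitA- cells, Bcam (33.0 against 3.78) and Itga7, a laminin-binding integrin of muscle (24.1 against 0.687), where 11.1% of all genes were. Both reached the average only through the VitA- library, so the counts of receptors are a description. Itga7 was the 1 of 8 called in the VitA- diet comparison, lower in DEN+WAD at 9.04, as 4.91% of all genes were, and none of 6 was called in the VitA+ gate. Itgb1, the beta subunit common to these integrins, was 567 to 1020 CPM in the mesenchymal classes, and Dag1, which encodes dystroglycan, 135 to 211. Itga6, the alpha subunit of the integrin that binds laminin 511, was endothelial, at 72.7 against 0.757 CPM in VitA-Col1a1+ DEN+WAD. It reached the average there only through the endothelial class. There 2 of 7 receptors were called higher (Itga6 and Bcam) and 2 lower (Sgcb and Sgce), beside 21.3% and 14.7% of all genes, while in the library labelled VitA-Col1a1- 2 of 8 were higher (Itga6 and Bcam) and 3 lower (Itga2, Itgb1 and Sgce), beside 17.0% and 13.5%.

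The genes most like each member were ranked by Pearson correlation of log2(CPM + 1) over 21 library-by-class groups, among 10680 genes. The groups overlap within a library and share its depth, so the values are a description. Lama1 was closest to Clstn3 (0.98), Bmp10 (0.98) and Dach1 (0.97), and Lamc3 to Tmem215 (0.98), Cilp (0.98) and Cpxm2 (0.98). Lama2 was closest to Map1a (0.99), Col6a2 (0.98) and Clec11a (0.98), and Lamb2 to Pdgfd (0.93). Lamb1 was closest to the soluble guanylate cyclase subunits Gucy1a1 (0.99) and Gucy1b1 (0.98), and Lamc1 to Mprip (0.98), while Lama4 was closest to Tubb3 (0.94), Lama5 to Cav2 (0.91), Nid1 to Rbfox2 (0.96) and Nid2 to Triqk (0.97). Among the members themselves, Lamc1 and Nid2 had the highest value (0.92), and Lama1 had -0.17 with Lamc3 and -0.20 with Lama4.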

How the data were processed

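The 5 deposited count matrices hold whole-number UMI counts of 31053 genes per cell, which the authors made with 10x Genomics 3′ libraries and Cell Ranger on the mouse genome mm10, and no normalisation was applied to them. The labels and the headers of 4 files name Cell Ranger 3.1.0, and the header of the VitA-Col1a1- file names 6.1.2. The kit version differs between fields of the labels. Groups were taken from the labels, with 1 library per group, and the file columns not tied to a sample numbered 0.

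From the counts, UMIs were summed per library and cell class and divided by the class's total UMIs and scaled to 1000000 (CPM), with exact Poisson intervals, conditional binomial intervals for ratios and Clopper-Pearson intervals for shares, all at 95% and for counting error only. A count of 0 was set to a floor of 3 UMIs per library for bounds. A ratio of at least 2 in either direction with a mean of at least 5 CPM was called. Cells were thinned to 2000 UMIs (seed 7) for shares. No cell was filtered and no doublet caller was run, but cells that met both class rules were set aside. Cells of the neither class were named from at least 3 genes of exactly 1 marker list, or, for hepatocytes, from 200 per 10000 UMIs of 5 genes. All 10 members are named, with listed matrix and receptor genes past the size rule and the 3 most correlated genes per member, among genes with a mean of at least 5 CPM over groups of at least 50 cells. The abundant Col4a1, Col4a2, Sparc, Itgb1 and Dag1 are named for their level. Some listed genes are not reported here. The members and lists were chosen with earlier results of these data known. Of the gene IDs, 31011 (99.9%) were found in GENCODE M21, and promoters of 5 of the 10 members were given. The ratio code was tested on simulated counts. Alternatives were TMM scaling (edgeR 4.0.16, R 4.3.3), means over cells, a minimum of 5000 UMIs per cell, other class rules, a fold of 1.5, no minimum level and all cells or stellate-like cells only. Python 3.11.15, numpy 2.4.6, scipy 1.17.1 and pandas 2.3.3 were used.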

Additional observations from a re-analysis of the deposited data

Results flagged for a closer look

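The diet difference of Lama1 had opposite directions in the gates. Its log2 ratio of DEN+WAD to chow was -0.56 in the VitA+ gate and 2.43 in the VitA- gate, a difference of -2.99. Lamb1 did likewise, with -0.43 and 0.35, a difference of -0.78. Each side is 1 library against 1 library, so the difference between gates was not tested. The share of stellate-like cells moved with it in the VitA- gate (53.6% in DEN+WAD and 5.54% in chow) and not in the VitA+ gate (95.5% and 96.7%). Within stellate-like cells the ratios lay below 1 in both gates, at 0.700 and 0.685 for Lama1 and at 0.746 and 0.829 for Lamb1. In the VitA- gate's cells with both the stellate and the fibroblast list (416 in DEN+WAD and 176 in chow) Lama1 was 2.92-fold higher in DEN+WAD (1.61 to 5.72), while Lamb1 had a ratio of 0.825.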

How the results depend on the processing

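Of 58 counts of called members under alternative settings, 50 were within 1.5 times the reported count. With stellate-like cells only, 1 gene in place of 5 was called between gates in DEN+WAD, 2 in place of 6 in chow, and 0 in place of 2 between diets in the VitA- gate. There Lama1 had a log2 ratio of -0.55 in place of 2.43, and Lama5 of 0.99 in place of -1.64 on 64 and 1 UMIs. In the VitA- diet comparison 6 genes were called with means over cells, 6 with a fold of 1.5, 4 with all cells, and 4 with mesenchymal cells that lack every endothelial list gene, a setting chosen after seeing the data. In the VitA+ diet comparison 3 genes in place of 1 were called with no minimum level. The counts of the endothelial comparisons stayed within 1.5 times under each setting run. Of 428 log2 ratios, 311 stayed within their counting interval, 115 moved beyond it and 2, of called genes, changed direction. The 115 hold genes that were not called, and some of these changed direction too. Lamb1 in the VitA- diet comparison, for example, had -0.27 in stellate-like cells in place of 0.35. TMM scaling moved the median log2 ratio of all genes by -0.11 between gates in DEN+WAD, by 0.11 and 0.15 between diets in the VitA+ and VitA- gates and by -0.27 and -0.11 in the endothelial comparisons, and no member changed direction under it. Of 270 shares of cells, 223 moved by more than their interval, since depth sets them. No paired analysis was possible because each group is 1 library, and no replicate could be left out. The fewest UMIs in all were in the chow VitA+ library, which had the highest median per cell but 259 cells, where 1 UMI of the mesenchymal class is worth more than in any other mesenchymal class.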
